A study of Mus musculus with 4 samples.

Results

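The heat shock chaperones described here are 10 genes, the HSF1-type chaperones Hspa1a, Hspa1b, Dnajb1, Hsph1, Hspb1, Hspa8, Hsp90aa1, Dnaja1, Hspd1 and Hspe1. Every probe set annotated to exactly 1 of them was taken, which gave 25 of the 45037 probe sets of the array. A minimum of 4 log2 units on any 2 arrays left 23 of them for testing, among 17228 tested probe sets in all, and each of the 10 genes kept at least 1. The groups were whole adrenal glands of male V1a knockout (KO) mice, which lack a vasopressin receptor, and of male wild-type (WT) mice, both 2 months of age, with 2 arrays each. The labels name no strain, no other allele and no treatment, and they do not say which part of the receptor gene was removed, whether glands were pooled, or whether the 2 arrays of a genotype came from separate animals. The p-values thus speak for the spread among these 4 arrays alone, and that spread may be technical. The question is how the loss of the receptor alters adrenal transcript levels. Avpr1a, the receptor's own gene, read 2.53 and 2.60 in the knockout, against 2.53 and 2.53 in wild type, close to the floor of the arrays at 2.30, so it gives no check of the genotype labels. Wild-type array 1 stood apart: it correlated with the other 3 arrays at 0.919 to 0.924 across tested probe sets, while those 3 correlated with one another at 0.974 to 0.986, so the chaperone differences are also given without it.

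Heat shock proteins are molecular chaperones that keep other proteins from misfolding and help them refold. HSP70 proteins bind exposed stretches of a client and release them in a cycle driven by ATP, J-domain proteins deliver clients and start ATP hydrolysis, and nucleotide exchange factors of the HSP110 kind let the client go. Some of these genes are expressed at all times, while others are switched on within minutes to hours when the heat shock factor HSF1 is freed from chaperones and binds heat shock elements, arrays of the unit GAA in alternating orientation, in their promoters. In the adrenal gland, restraint and other stress are known from the rat to induce HSP70 through ACTH.

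Promoter sequences are shown because HSF1 is known to act through the elements they hold. RefSeq promoter windows of GRCm38.p6, from 250 bases before to 50 after the transcript start, were at hand for 8 of the 10 genes, as 13 windows. A heat shock element of 2 units was searched as GAANNTTC or TTCNNGAA, each its own reverse complement. It stood in at least 1 window of 7 of the 8 genes, against 17% of 27025 genes with a window. The longer form of 3 units, which adds 1 more unit in alternating orientation after any 2 bases and so holds 2 overlapping short forms, was searched on both strands and stood in windows of Hsph1, Hspd1 and Hspe1, against 0.662% of all genes. The CCAAT box, searched as CCAAT or ATTGG, stood in windows of 6 of the 8 genes, against 41.1% of all genes. The 250 bases before the start are printed 5′ to 3′ for 2 inducible HSP70 genes, for their partner Dnajb1 and the small heat shock protein Hspb1, which like Hspa1a read highest on 1 wild-type array, and for Hspe1, whose readings differed little. Capitals mark matches to the heat shock element of 2 units. Hspa1a lies on the minus strand at chr17:34972157-34972406, and Hspa1b on the minus strand at chr17:34959239-34959488. Hspb1 lies on the plus strand at chr5:135887669-135887918, Dnajb1 on the plus strand at chr8:83607925-83608174 and Hspe1 on the plus strand at chr1:55087898-55088147.
Hspa1a: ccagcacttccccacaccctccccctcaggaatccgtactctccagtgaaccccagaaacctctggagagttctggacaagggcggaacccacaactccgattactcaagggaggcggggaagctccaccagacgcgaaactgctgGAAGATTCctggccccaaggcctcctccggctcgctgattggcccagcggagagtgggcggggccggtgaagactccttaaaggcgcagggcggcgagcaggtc
Hspa1b: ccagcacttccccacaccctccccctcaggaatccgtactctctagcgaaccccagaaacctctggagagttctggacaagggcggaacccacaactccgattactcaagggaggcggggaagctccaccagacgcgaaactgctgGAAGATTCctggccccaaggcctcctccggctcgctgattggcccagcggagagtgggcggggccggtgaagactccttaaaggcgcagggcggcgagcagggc
Hspb1: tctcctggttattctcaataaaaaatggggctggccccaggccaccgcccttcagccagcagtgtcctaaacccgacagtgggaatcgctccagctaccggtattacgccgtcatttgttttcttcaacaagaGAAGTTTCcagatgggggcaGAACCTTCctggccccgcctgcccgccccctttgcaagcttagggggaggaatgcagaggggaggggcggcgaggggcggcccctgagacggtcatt
Dnajb1: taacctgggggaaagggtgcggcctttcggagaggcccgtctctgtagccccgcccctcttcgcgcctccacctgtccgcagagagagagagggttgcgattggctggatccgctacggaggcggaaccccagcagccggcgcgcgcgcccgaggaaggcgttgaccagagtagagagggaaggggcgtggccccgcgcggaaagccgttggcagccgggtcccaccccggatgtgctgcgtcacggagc
Hspe1: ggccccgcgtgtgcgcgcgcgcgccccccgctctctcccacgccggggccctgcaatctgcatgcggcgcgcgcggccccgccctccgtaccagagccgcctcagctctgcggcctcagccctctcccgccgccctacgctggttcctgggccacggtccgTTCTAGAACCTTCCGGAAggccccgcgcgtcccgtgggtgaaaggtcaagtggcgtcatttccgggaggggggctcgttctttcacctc

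The upstream sequences of Hspa1a and Hspa1b differed at 3 of 250 bases, and both held the element GAAGATTC 104 bases before the start. Hspb1 held 2 elements, and Hspe1 held 3 that overlap in 1 run. The letters of the heat shock element were not found in the Dnajb1 windows. Hspe1 and Hspd1 lie head to head on chromosome 1, and the run of elements printed for Hspe1 also stood in the opposite direction in 1 of the 2 Hspd1 windows.

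None of the 23 chaperone probe sets passed a threshold for knockout against wild type in limma, at an adjusted p of 0.05 (0% of all tested probe sets called) or at the second threshold, a fold of 2 or more with p below 0.01 before adjustment (0.836%). At p below 0.05 before adjustment the count was 0 of 23 chaperone probe sets, against 5.14% of all, which does not show that the genotypes are alike. With 1 probe set per gene, the one with the highest mean over the 4 arrays, the knockout mean was lower in 9 of the 10 genes, against 56.0% of 10110 genes. The median difference, knockout minus wild type, was -0.41 log2 units over the 10 genes and -0.049 over all genes. Without wild-type array 1 it was -0.025 over the 10 genes and 0.043 over all genes, so the size of the median rested on that array. Then 5 of the 10 lay lower in the knockout, against 42.9% of all genes. Over all 23 probe sets the median was -0.21, beside -0.038 over all tested probe sets, and 17 of the 23 had a lower knockout mean, against 54.6% of all. Without wild-type array 1 this count was 8 of 23, against 43.4%. The 2 genotypes did not overlap in 5 of the 23, against 37.4% of all, with the knockout higher in 2, against 17.4%, and lower in 3, against 20.0%. With 1 probe set per gene they did not overlap in 2 of the 10 genes, Hsph1 and Hspe1, both lower in the knockout, against 37.7% of all genes in either direction.

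**Figure D1:**
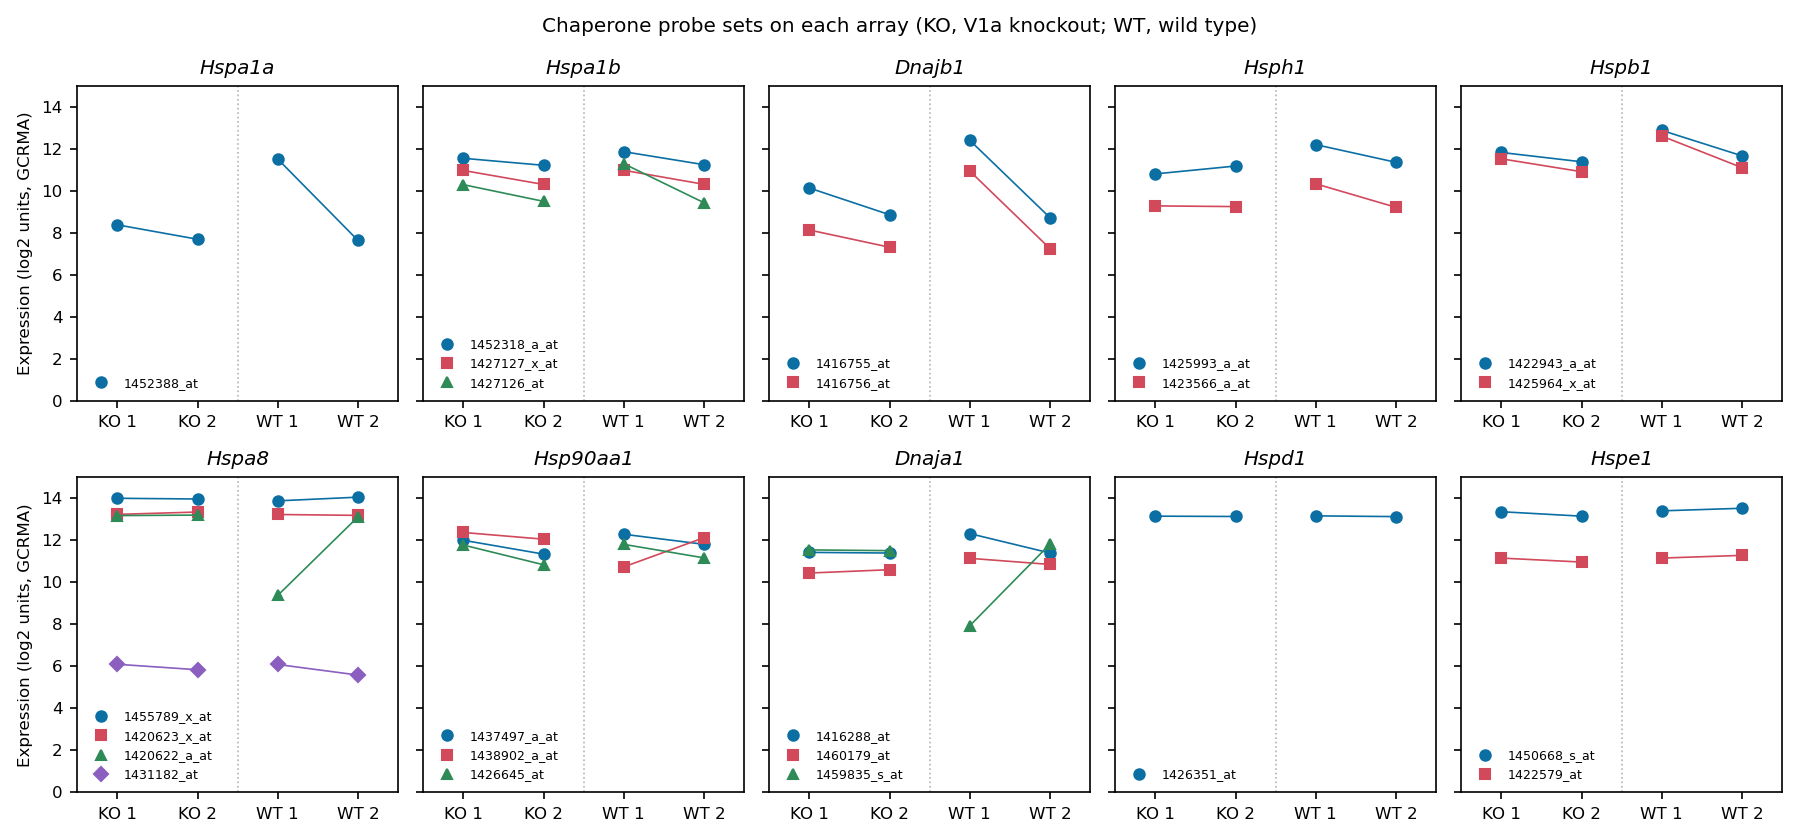
Expression in log2 units (vertical axis) of the 23 tested chaperone probe sets on KO arrays 1 and 2 and WT arrays 1 and 2, a panel per gene, with a symbol and colour per probe set and lines that join arrays of a genotype. Hspa1a and both Dnajb1 probe sets read over 10 on WT array 1 and lower on the other 3, while 1 probe set each of Hspa8 and Dnaja1 read below 10 on WT array 1 only.

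Among the stress-inducible genes, the arrays of 1 genotype differed by more than the genotypes did. Hspa1a, the inducible cytosolic HSP70 that is nearly silent in many unstressed tissues, read 8.39 and 7.70 in the knockout, against 11.52 and 7.65 in wild type. Wild-type array 1 stood alone, and the other wild-type array was the lowest of the 4. The difference was -1.54 (SE 1.45, 95% interval -5.68 to 2.59, n = 2 per group, limma adjusted p = 0.797), and without wild-type array 1 it was 0.40. Hspa1b, a second copy of the inducible HSP70 with nearly the same sequence, was read by 3 probe sets, and signal of one copy may be read by probe sets of the other. Its plain probe set 1427126_at read 10.30 and 9.51 in the knockout, against 11.30 and 9.44 in wild type, so that the genotypes differed by -0.47 (SE 0.75), or by 0.46 without wild-type array 1. This probe set had the array order of Hspa1a with a narrower range. Its brightest probe set, 1452318_a_at, read 11.56 and 11.22 in the knockout, against 11.87 and 11.25 in wild type, and 1427127_x_at read 10.98 and 10.31 in the knockout, against 10.99 and 10.32 in wild type. The genotypes overlapped on all 3, with differences of -0.17 and -0.0083 on 1452318_a_at and 1427127_x_at. Without wild-type array 1 these were 0.14 and 0.33, so all 3 signs turned.

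Dnajb1, the J-domain partner of the inducible HSP70 and part of the loop that shuts HSF1 off, read 10.14 and 8.87 in the knockout, against 12.42 and 8.73 in wild type. Its second probe set read 8.14 and 7.32 in the knockout, against 10.95 and 7.26 in wild type. Both put wild-type array 1 on top and wild-type array 2 at the bottom, as Hspa1a did. The differences were -1.07 (SE 1.43, 95% interval -5.16 to 3.03, limma adjusted p = 0.845) and -1.37 (SE 1.39), and without wild-type array 1 they were 0.77 and 0.47.

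Hsph1, the HSP110 that exchanges nucleotide on HSP70, read 10.81 and 11.19 in the knockout, against 12.21 and 11.37 in wild type. The genotypes did not overlap, with both knockout arrays lower, and the difference was -0.79 (SE 0.37, 95% interval -1.85 to 0.27, limma adjusted p = 0.794). Without wild-type array 1 it was -0.36. The other Hsph1 probe set read 9.29 and 9.26 in the knockout, against 10.34 and 9.22 in wild type, so here the groups overlapped, with a difference of -0.51 (SE 0.44), or 0.051 without wild-type array 1. Hspb1, the small heat shock protein that holds unfolded clients without ATP and binds actin, read 11.83 and 11.39 in the knockout, against 12.89 and 11.67 in wild type. Its second probe set read 11.53 and 10.92 in the knockout, against 12.62 and 11.11 in wild type. On both, wild-type array 1 was the highest and knockout array 2 the lowest, and the groups overlapped. The differences were -0.67 (SE 0.50, limma adjusted p = 0.794) and -0.64 (SE 0.61), and -0.062 and 0.11 without wild-type array 1.

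**Figure D2:**
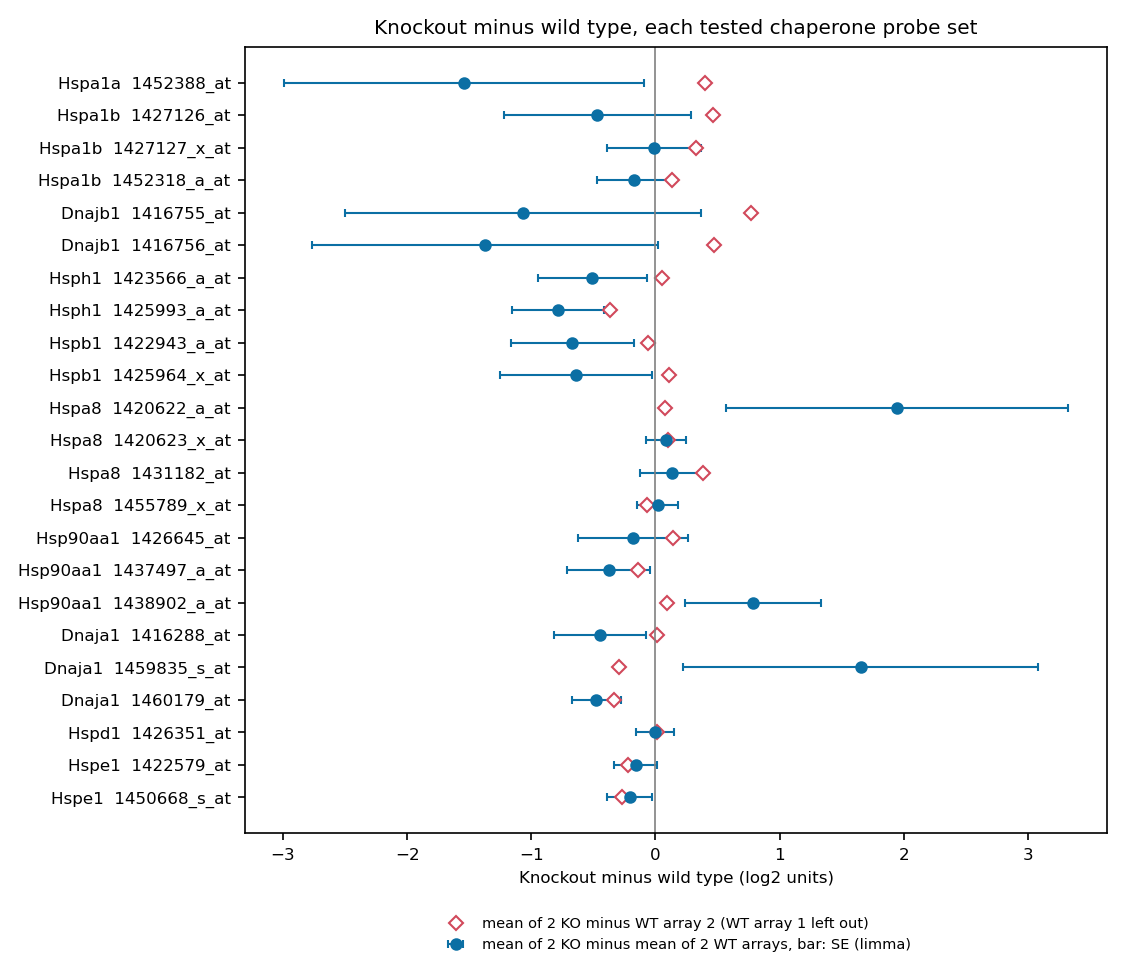
Knockout minus wild type in log2 units (horizontal axis) for the 23 tested chaperone probe sets, filled circles with SE bars for all 4 arrays and open diamonds with WT array 1 left out. The circles span -1.54 to 1.95, while the diamonds span -0.36 to 0.77.

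Among the remaining cytosolic chaperones, Hspa8 had a higher knockout mean, while the probe sets of Dnaja1 and of Hsp90aa1 did not share 1 direction. Hspa8, the constitutive cytosolic HSP70 that also uncoats clathrin vesicles, had 4 tested probe sets. The brightest, 1455789_x_at, read 14.01 and 13.98 in the knockout, against 13.89 and 14.06 in wild type, and so differed by 0.018 (SE 0.17, 95% interval -0.46 to 0.50), or by -0.070 without wild-type array 1. The probe set 1420623_x_at read 13.24 and 13.36 in the knockout, against 13.24 and 13.20 in wild type, and so differed by 0.082, or by 0.10 without that array. The probe set 1420622_a_at read 13.19 and 13.21 in the knockout, against 9.38 and 13.12 in wild type, and so differed by 1.95 (SE 1.38), or by 0.076 without wild-type array 1. A dimmer one, 1431182_at, read 6.10 and 5.84 in the knockout, against 6.09 and 5.59 in wild type, and so differed by 0.13, or by 0.38 without that array. With all arrays the knockout mean was higher on each of the 4. The groups did not overlap on 1420623_x_at, by a narrow margin, and on 1420622_a_at, with both knockout arrays higher. Of the 4, only 1420622_a_at set wild-type array 1 far from the rest, and it set it low.

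Dnaja1, a J-domain protein with a farnesyl anchor, had 2 probe sets with a lower knockout mean and 1 with a higher one. Its brightest probe set read 11.43 and 11.40 in the knockout, against 12.33 and 11.41 in wild type, and so differed by -0.45 (SE 0.37), or by 0.013 without wild-type array 1. The probe set 1460179_at read 10.45 and 10.61 in the knockout, against 11.15 and 10.86 in wild type. The groups did not overlap there, with both knockout arrays lower, and the difference was -0.48 (SE 0.20, 95% interval -1.04 to 0.083, unadjusted p = 0.0763, adjusted p = 0.794 in limma), or -0.33 without wild-type array 1. The third, 1459835_s_at, read 11.55 and 11.52 in the knockout, against 7.94 and 11.82 in wild type, and so differed by 1.65 (SE 1.43), or by -0.29 without wild-type array 1, so its sign rested on that array. Wild-type array 1 was thus the highest array on a pair of Dnaja1 probe sets and the lowest by far on the third.

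Hsp90aa1, the inducible form of cytosolic HSP90 that matures kinases and steroid receptors, had 3 tested probe sets of 5. Its brightest read 12.01 and 11.35 in the knockout, against 12.30 and 11.82 in wild type, and so differed by -0.38 (SE 0.34, 95% interval -1.34 to 0.58), or by -0.14 without wild-type array 1. The probe set 1426645_at read 11.78 and 10.84 in the knockout, against 11.82 and 11.17 in wild type, and so differed by -0.18, or by 0.14 without that array. The probe set 1438902_a_at read 12.38 and 12.06 in the knockout, against 10.74 and 12.13 in wild type, and so differed by 0.79 (SE 0.54) with wild-type array 1 the lowest, or by 0.089 without it. The groups overlapped on all 3, and the mean of the 3 probe sets gave a difference of 0.076, so the sign and size for Hsp90aa1 depend both on the probe set and on wild-type array 1. The remaining pair of Hsp90aa1 probe sets read 2.30 to 2.64 on every array, close to the floor, and was not tested. The second-highest array of a chaperone probe set was at least 6.09 among those tested and at most 2.61 among those left out, so no member lay near the filter.

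The mitochondrial chaperonin genes varied little among the arrays. Hspd1, the HSP60 ring that folds imported proteins, read 13.16 and 13.14 in the knockout, against 13.17 and 13.14 in wild type, and so differed by -0.0039 (SE 0.15, 95% interval -0.45 to 0.44), or by 0.014 without wild-type array 1. Hspe1, the HSP10 lid of that ring, read 13.37 and 13.16 in the knockout, against 13.41 and 13.53 in wild type. The groups did not overlap, with both knockout arrays lower, and the difference was -0.21 (SE 0.18, 95% interval -0.72 to 0.30, limma adjusted p = 0.794), or -0.27 without wild-type array 1. The other Hspe1 probe set read 11.16 and 10.97 in the knockout, against 11.16 and 11.29 in wild type, and so differed by -0.16, or by -0.22 without that array. Both Hspe1 probe sets had knockout array 2 as the lowest. Wild-type array 1 minus wild-type array 2 was 0.035 in Hspd1 and -0.12 and -0.13 in Hspe1.

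Replicate arrays lay farther apart in wild type than in the knockout, over the chaperones and over all genes alike. The median size of the gap was 0.35 between knockout arrays and 0.73 between wild-type arrays over the 10 genes, against 0.14 and 0.44 over all genes. In Hsp90aa1 and Hspe1 the brightest probe set had the wider gap in the knockout. With its sign, knockout array 1 minus knockout array 2 had a median of 0.27 over the 10 genes, against -0.0066 over all genes, and wild-type array 1 minus wild-type array 2 a median of 0.73, against 0.20. Wild-type array 1 was the highest of the 4 on 15 of the 23 probe sets, against 47.1% of all tested probe sets, and the lowest on 4, against 26.9%. It exceeded wild-type array 2 by over 1 log2 unit, a size chosen after the values were seen, on 7 of the 23, against 6.98% of all, and lay below it by as much on 3, against 8.82%. A gap of over 3 log2 units, chosen likewise, put it above on the Hspa1a and both Dnajb1 probe sets, against 0.151% of all, and below on 1 probe set each of Hspa8 and Dnaja1, against 0.876%. Knockout array 1 read above knockout array 2 on 19 of the 23, against 48.9%. These are counts over probe sets that share arrays and genes, and they carry no test.

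**Figure D3:**
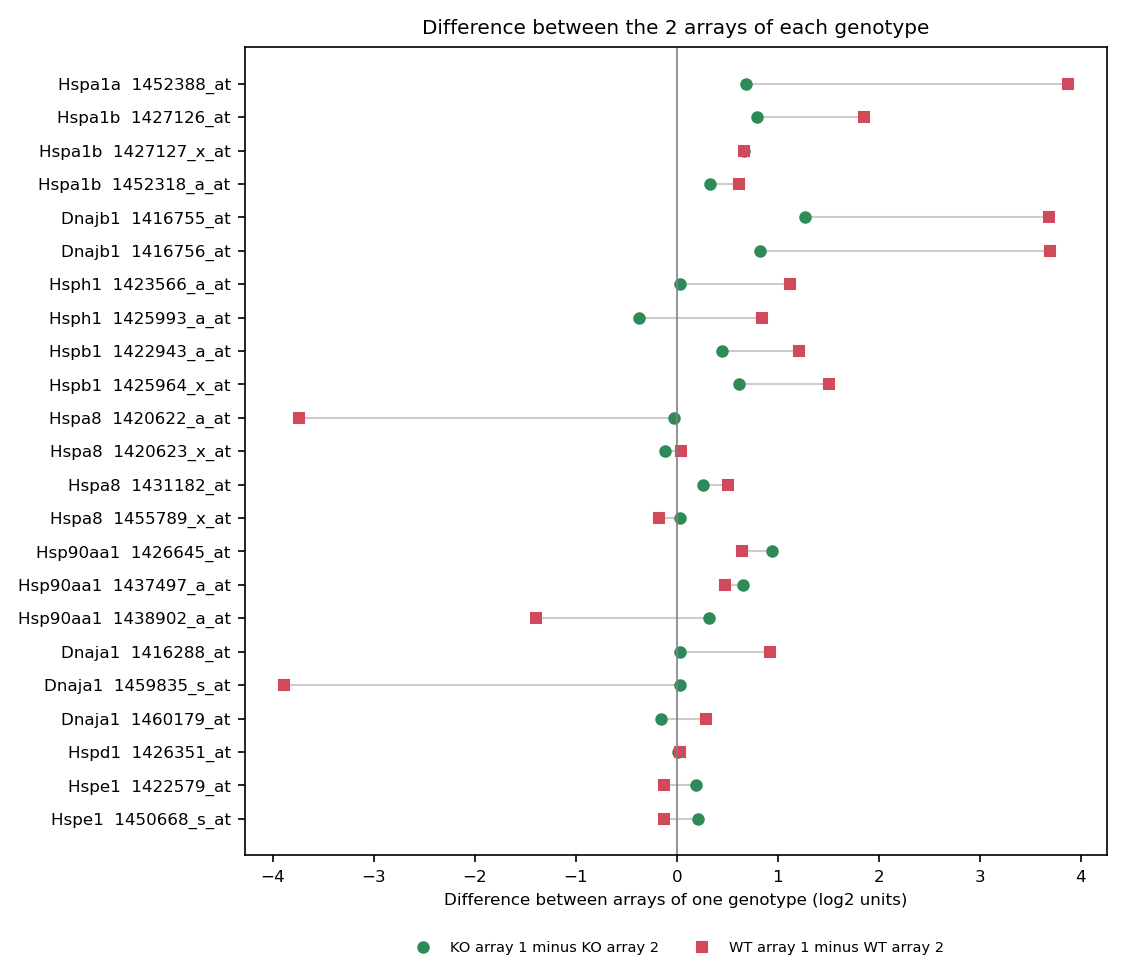
Difference in log2 units (horizontal axis) between the 2 arrays of a genotype for the 23 tested chaperone probe sets, circles for the knockout and squares for wild type. Hspa1a and Dnajb1 lie at 3.68 to 3.87 in wild type and at 0.69 to 1.27 in the knockout, and Hspd1 and Hspe1 lie between -0.13 and 0.21 over both genotypes.

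Adrenal identity was plain on every array: all 7 cortex markers were read, with a mean level of 12.8 on both knockout arrays and 12.9 on both wild-type arrays, as were the 5 measured medulla markers. Some lists of other markers were also high on wild-type array 1. Of 8 immediate-early genes, which respond within minutes to stress or handling, 6 were tested. Their mean level was 8.60 and 9.70 in the knockout, against 11.3 and 8.98 in wild type, and wild-type array 1 was the highest on all 6. Fos read 7.78 and 9.58 in the knockout, against 10.83 and 8.63 in wild type. The liver markers Alb, Apoa1 and Ttr lay between 2.43 and 2.88 on the knockout arrays, between 6.88 and 8.95 on the first wild-type array and between 2.30 and 2.51 on the second. Fgb read 3.26 on the first wild-type array, below the filter, and 2.30 on each of the others. Serpina1b, the 1 tested liver marker of 5, read 2.30 and 2.30 in the knockout, against 7.97 and 7.20 in wild type. The 4 tested adipocyte markers had a mean level of 6.53 and 8.82 in the knockout, against 10.56 and 8.87 in wild type. They did not share 1 order of arrays. Ucp1 and Cidea were highest on wild-type array 1, at 10.05 and 9.78. Adipoq and Fabp4 were highest on knockout array 2, at 10.16 and 13.18, against 9.60 and 12.81 on wild-type array 1. The medulla markers had a mean level of 12.94 and 12.06 in the knockout, against 13.16 and 12.30 in wild type, the same order of arrays within each genotype as most chaperones. The 5 skeletal muscle markers read 2.30 to 2.65 on all arrays. Of 5 smooth muscle markers 3 were tested, with a mean level of 7.02 and 7.43 in the knockout, against 8.02 and 7.72 in wild type, and Myh11 and Cnn1 were near the floor. The part of these tissues, of handling and of wild-type array 1 as a whole in the chaperone readings was not tested, and in whole glands fewer cells of a type and less RNA per cell cannot be told apart.

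Around the 10 genes stand the other chaperones and co-chaperones, taken as 9 lists. None of their tested genes passed the adjusted threshold in limma (0% of all genes) or the unadjusted one with a 2-fold difference (0.692% of all genes), and 1 gene, Dnajc2, had an unadjusted p under 0.05 (5.06% of all genes). Dnajc2, a J-domain protein at the ribosome, read 8.08 and 8.08 in the knockout, against 8.66 and 8.53 in wild type. The difference was -0.52 (SE 0.16, limma adjusted p = 0.794), or -0.20 on the mean of its tested probe sets. Of the 13 other cytosolic J-domain proteins, 9 lay lower, against 56.0% of all genes, and 4 higher, with a median of -0.16. The groups did not overlap in 6 of them, 3 higher and 3 lower, against 17.1% of all genes higher and 20.5% lower. Dnajc21 and Dnajb14 differed by 0.31 and 0.30, Dnajb14 by 0.20 without wild-type array 1. On the mean of the tested probe sets of each gene, Dnajc21 differed by 0.20 and Dnajb14 by 0.037. Without wild-type array 1 the median of this list was 0.093.

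HSP90 partners and co-chaperones, which load clients onto HSP90 and time its ATP cycle, were listed as 15 genes, of which 12 were tested. Hsp90ab1, Ptges3 and Ppid had no probe set annotated to them alone. Of the 12, 10 lay lower, against 56.0% of all genes, with a median of -0.22. The groups did not overlap in 7, with the knockout lower in 6, against 20.5% of all genes, and higher in 1, against 17.1%. Cacybp, which bridges a ubiquitin ligase to its targets, read 11.00 and 10.93 in the knockout, against 11.77 and 11.34 in wild type, and so differed by -0.59 (SE 0.22), or by -0.38 without wild-type array 1. Sugt1, a co-chaperone at kinetochores, differed by -0.34 and Ppp5c, a phosphatase that docks on HSP90, by -0.41, or by -0.15 without that array. The median of the list stayed below 0 without wild-type array 1, at -0.10. All 7 nucleotide exchange and BAG genes, which release clients from HSP70, were tested. Of these 6 lay lower, against 56.0% of all genes, with a median of -0.13. Bag4 differed by 0.42, Bag2 by -0.30 and Hspbp1 by -0.22, and without wild-type array 1 the median was 0.26.

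The other HSP70 and HSP110 genes and the cytosolic chaperonin had medians above 0 on the brightest probe set of each gene. Of the 6 tested HSP70 and HSP110 genes 3 lay higher, with a median of 0.13, and the groups did not overlap in 2, both higher, against 17.1% of all genes higher and 37.7% in either direction. Without knockout array 1 the median was -0.014. It was -0.0061 on the mean of the tested probe sets of each gene, and 0.37 over 5 genes when only plain probe sets were read. Hspa14 read 8.25 and 8.16 in the knockout, against 7.91 and 7.71 in wild type, and so differed by 0.39 (SE 0.17), and Hspa4, an HSP110, differed by 0.37 (SE 0.19). Hspa13 differed by 0.68, by -0.20 without wild-type array 1, and by 0.089 on the mean of its tested probe sets. The CCT chaperonin, the cytosolic ring that folds actin and tubulin, had 6 of 8 subunit genes higher, with a median of 0.13. The other 2 lay lower, against 56.0% of all genes. The groups did not overlap in 5, with the knockout higher in 4, against 17.1% of all genes, and lower in 1, against 20.5%. Cct8 read 10.86 and 10.91 in the knockout, against 9.34 and 10.42 in wild type, and so differed by 1.00 (SE 0.43), or by 0.46 without wild-type array 1. Cct4 and Cct6a differed by 1.10 and 0.50 with wild-type array 1 the lowest, and both by 0.11 without it. They differed by -0.19 and -0.27 when only plain probe sets were read, so their direction depends on the probe set. The median of the chaperonin list was then -0.19.

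**Figure D4:**
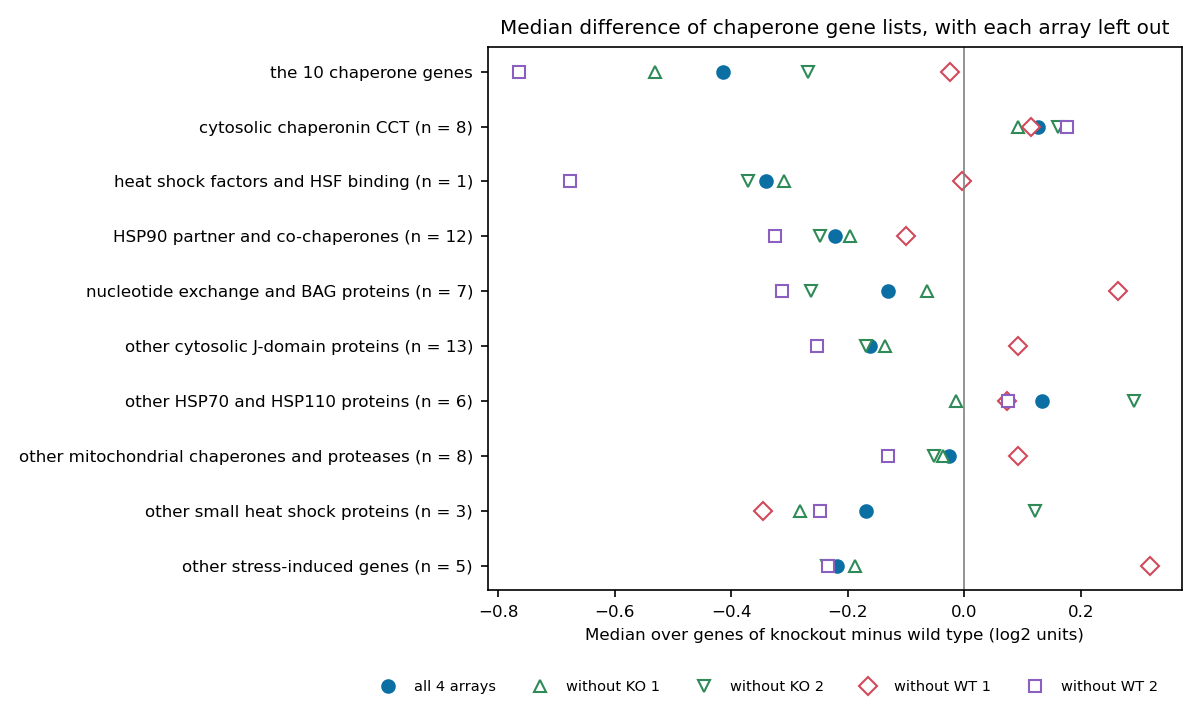
Median over genes of knockout minus wild type in log2 units (horizontal axis) for the 10 chaperone genes and 9 lists of other chaperone and stress genes, filled circles for all 4 arrays and open symbols with each array left out. The 10 chaperone genes lie at -0.41 with all arrays and at -0.025 without WT array 1.

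The other mitochondrial chaperones and proteases were split, with 4 of 8 higher and a median of -0.025, or 0.092 without wild-type array 1. Clpx, the unfoldase of the matrix protease, read 8.47 and 8.75 in the knockout, against 7.96 and 8.16 in wild type, and so differed by 0.55 (SE 0.20), while Clpp, its protease subunit, differed by -0.31, or by -0.13 without wild-type array 1, and Hspa9, the mitochondrial HSP70, by 0.15. Of 7 other small heat shock proteins 3 were tested, all with a lower knockout mean, against 56.0% of all genes. Their median was -0.17, or 0.12 without knockout array 2, and -0.46 on the mean of the tested probe sets of each gene. Hspb8, a partner of Bag3, read 11.18 and 9.22 in the knockout, against 11.24 and 10.54 in wild type, and so differed by -0.69 (SE 0.78), or by -0.35 without wild-type array 1. Cryab differed by -0.17 and Hspb6 by -0.080, or by -0.41 and 0.087 without that array. On the mean of its tested probe sets Cryab differed by -0.46. In the list of heat shock factors, 5 of 6 genes had a probe set annotated to them alone, while Hsf1 had none. Hsbp1, which binds HSF1, was the 1 tested gene, at -0.34 (SE 0.29), or -0.0039 without wild-type array 1. The 5 tested genes in the list of other stress-induced genes had a median of -0.22, or 0.32 without wild-type array 1. Serpinh1, a collagen chaperone, differed by -0.30 and Ddit3, a factor of the unfolded protein response, by -0.22. Atf3, a stress-induced transcription factor, read 4.84 and 5.09 in the knockout, against 7.83 and 4.09 in wild type. It had the same highest and lowest arrays as Hspa1a, and its difference was -0.998, or 0.87 without wild-type array 1.

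Genes whose pattern lay nearest to the chaperones were sought by the root mean square distance over the 4 arrays to the mean profile of the 10 genes, each centred on its own mean. That profile was -0.10 and -0.43 in the knockout, against 0.83 and -0.31 in wild type. It averages unlike genes and need not match any 1 of them. Wild-type array 1 minus wild-type array 2 was 3.87 in Hspa1a and 3.68 in Dnajb1, but 0.035 in Hspd1 and -0.18 in Hspa8, each on its brightest probe set. The nearest of the other genes were Pi4k2b at 0.015 log2 units, Dnajb4 and Rnf217 at 0.032, L1cam at 0.035 and Pnpla6 at 0.037. Dnajb4, a J-domain protein, read 9.41 and 9.07 in the knockout, against 10.31 and 9.12 in wild type. With 4 arrays the likeness is a description only.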

How the data were processed

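The authors deposited log2 values for each probe set of a short-oligonucleotide mouse array, computed by GCRMA within Bioconductor 3.14, per the labels' protocols. That the scale is log2 was inferred from the range, 2.30 to 14.9. GCRMA fits background to probe sequence, so dim probe sets pile up at 2.30. Its version is not given in the sources used here. RNA integrity numbers were 8 to 9, per the labels' protocols.

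The values were used as they stand, without the 64 control probe sets, and testing needed 4 log2 units on any 2 arrays. The platform annotation gave the gene names, and by gene ID all chaperone symbols matched those of GRCm38.p6. Any pair of arrays shared 1.09% to 1.65% of tested values exactly. The genotypes were compared in limma 3.58.1 under R 4.3.3, by lmFit and eBayes with genotype as the 1 term, two-sided, on 2 residual plus 1.73 prior degrees of freedom. Benjamini-Hochberg adjustment ran over the 17228 tested probe sets. SEs and 95% intervals are limma's moderated ones. The number of arrays limits the precision, and an exact permutation test over 2 against 2 arrays cannot go below p = 0.333. The script was tested on simulated data.

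The members and lists were chosen with earlier results of these data known. Named were all 10 chaperone genes by every probe set and the 5 genes nearest in pattern. For each list of other chaperone genes, the 3 with the smallest unadjusted p were named. Fos, Alb, Apoa1, Ttr, Fgb, Ucp1, Cidea, Adipoq, Fabp4, Myh11 and Cnn1 were named after their values were seen. The replicate numbers did not pair the samples by any label, and deviations of same-numbered arrays correlated at 0.154. The fit was repeated with the filter dropped or set to 6 log2 units, after quantile normalization or median centring, with trend and robust eBayes, on plain probe sets (IDs without _a, _s or _x), with a replicate block, with each array left out, and on means over a gene's probe sets.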

Additional observations from a re-analysis of the deposited data

How the results depend on the processing

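No chaperone gene passed an adjusted p of 0.05 in limma under any alternative run; the smallest adjusted p was 0.0787, in Dnaja1 without wild-type array 2. That fit keeps 1 wild-type array, assumed to vary like the knockout. Over all probe sets the adjusted count of 0 became 2 with the filter set to 6 log2 units, with centred arrays and with plain probe sets. The unadjusted count of 144 became 78 without a filter, and the 885 at an unadjusted p under 0.05 became 1545 there. Leaving out each array in turn moved these counts between 25 (without knockout array 1) and 1497 (without wild-type array 2) and between 169 and 6507 (the same arrays). They were 30 and 205 without knockout array 2, and 183 and 2062 without wild-type array 1. The chaperone median of -0.41 lay between -0.76 and -0.025 with each array left out, where leaving out wild-type array 1 gave the value nearest 0, and between -0.41 and -0.20 otherwise. Over probe sets, the median of -0.21 lay between -0.50 and 0.076 with each array left out. With each array left out, these genes crossed 0: Hspa1a (-3.48 to 0.40), Dnajb1 (-2.91 to 0.77), Hspa1b (-0.48 to 0.14), Dnaja1 (-0.91 to 0.013), Hspa8 (-0.070 to 0.11), Hspd1 (-0.021 to 0.014), Hspa13 (-0.20 to 1.56), Atf3 (-2.87 to 0.87), Hspb8 (-1.67 to 0.29), Hspb6 (-0.28 to 0.12) and Cryab (-0.41 to 0.074). The sign turned without wild-type array 1 in Hspa1a, Dnajb1, Hspa1b, Dnaja1, Hspa8, Hspa13 and Atf3, without knockout array 2 in Hspb8 and without wild-type array 2 in Cryab. In Hspd1 and Hspb6 it turned both without wild-type array 1 and without knockout array 2. Hsbp1 kept its sign but lay between -0.68 and -0.0039, nearest 0 without wild-type array 1. Hspd1 turned to 0.050 with quantile normalization and 0.020 with centred arrays. Cct6a and Cct4 turned to -0.27 and -0.19 with plain probe sets. Hsp90aa1, Dnaja1 and Hspa9 turned to 0.076, 0.24 and -0.0034 with probe sets averaged per gene. Why the probe sets of a gene differ was not tested. With the replicate number as a block, 0 probe sets passed the adjusted threshold, 126 the unadjusted one and 684 an unadjusted p under 0.05, and the chaperone median was -0.41. The alternatives for the lists and their named genes were chosen after seeing the data. Signal near the floor or the top of the scale limits what small differences can show.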

Other observations

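Several members of the heat shock families read close to the floor on all 4 arrays. Hspa1l, a testis HSP70 beside Hspa1a and Hspa1b, read 2.30 throughout, as did Hspb9. Hspb7 and Hspb3, small heat shock proteins of heart and skeletal muscle, read 2.50 and 2.40 to 2.41. Of the heat shock factors, Hsf2 read 2.43 and 2.42 in the knockout, against 2.34 and 2.42 in wild type, and Hsf4 and Hsf5 read 2.30 to 2.41. All of these lay below the filter and were not tested. In the same lists, 6 of 8 other HSP70 and HSP110 genes and 3 of 7 other small heat shock proteins were tested. Among those, Hspa2 read 6.43 to 7.38, Cryab 8.13 to 8.61 and Hspb6 7.75 to 8.20.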
